A study of Homo sapiens with 4 samples.

Results

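The loci of KLF5, KLF4, ELF3 and EHF, 4 genes for transcription factors of epithelial cells, were examined for occupancy by GATA4 in PaTu8988S, an established cell line from a pancreatic adenocarcinoma. A locus was the gene body in build hg19 with 200 kb added on either side, and every interval of the peak list that overlapped it was a member. By this rule 34 intervals were members, of 21139 on the autosomes and chromosome X (0.161%): 12 at KLF5, 12 at ELF3, 9 at EHF and 1 at KLF4. The list came from 4 CUT&RUN libraries of PaTu8988S cells, with no treatment or modification named in the labels, each made from 500000 cells with 10 ug of anti-GATA4 antibody MAB2606. In this assay an antibody directs a nuclease to the bound protein, and the DNA it releases is sequenced. All 4 libraries formed 1 group, and the series set them in the context of GATA4, GATA6 and the classical programme of pancreatic ductal adenocarcinoma. The libraries are merged into 1 list of common peaks that gives chromosome, start and end only, so the values below carry no spread between libraries and no height, the depth is unknown, and a control library was not analysed here. The list holds no expression values, so neither the identity of the line nor the activity of the 4 genes was checked.

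KLF5 and KLF4 are zinc-finger factors of the Krüppel-like family, which bind GC-rich elements and CACCC boxes. KLF5 is known for its part in proliferating gut and glandular epithelium, and KLF4 for its part in differentiating epithelium and as a pluripotency factor. ELF3 and EHF belong to the epithelium-specific branch of the ETS family, whose DNA-binding domain recognises a GGAA core. GATA4 is a zinc-finger factor of endoderm and heart that binds the word GATA with preferred flanking bases.

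The sequence of the intervals in hg19 was not used here. The RefSeq promoter table (build GRCh38.p14) held windows from 250 bases before to 50 bases after an annotated start, and it matched 4 of 4 genes with 6 promoters. The ELF3 promoter is shown because an interval lay on that gene's start in hg19, and both KLF5 promoters because the widest member lay inside KLF5 close to its start. Each line gives the 250 bases before the start, 5′ to 3′ along the gene. Capitals mark the words GATA, CACCC and GGAA on either strand, so GGGTG and TTCC are capitalised too, and adjoining words run together.
ELF3 promoter (chr1:202010337-202010586, plus strand): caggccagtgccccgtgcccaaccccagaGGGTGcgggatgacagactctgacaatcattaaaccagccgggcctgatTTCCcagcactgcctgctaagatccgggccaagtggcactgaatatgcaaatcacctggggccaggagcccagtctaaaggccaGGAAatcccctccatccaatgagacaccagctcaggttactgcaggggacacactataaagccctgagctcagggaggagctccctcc
KLF5 first promoter (chr13:73054726-73054975, plus strand): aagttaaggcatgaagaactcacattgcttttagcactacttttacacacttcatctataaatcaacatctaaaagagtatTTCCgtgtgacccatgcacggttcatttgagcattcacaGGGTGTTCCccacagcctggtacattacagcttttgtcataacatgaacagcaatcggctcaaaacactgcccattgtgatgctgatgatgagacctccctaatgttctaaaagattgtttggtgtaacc
KLF5 second promoter (chr13:73058755-73059004, plus strand): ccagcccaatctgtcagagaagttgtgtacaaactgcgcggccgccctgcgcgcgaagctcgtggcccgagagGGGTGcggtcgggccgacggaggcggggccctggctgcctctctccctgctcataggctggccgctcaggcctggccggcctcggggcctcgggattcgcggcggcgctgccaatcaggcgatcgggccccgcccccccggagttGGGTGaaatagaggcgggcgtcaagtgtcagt
The KLF5 starts were 4.03 kb apart in GRCh38.p14, and the bases before them differed in composition, with 40.8% G and C before the first start and 70.8% before the second. None of the 3 printed stretches held GATA. The second KLF5 promoter held CACCC 2 times in its 300 bases and GGAA 0 times, the first held CACCC 1 time and GGAA 2 times, and ELF3 held CACCC 1 time and GGAA 2 times.

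Over the whole windows of 300 bases, GATA occurred in 4 of the 6 promoters. The sites are shown with up to 10 bases on either side and the word in capitals, written 5′ to 3′ along the gene, so TATC is GATA on the opposite strand.
KLF5 first promoter, first base of the word 32 bases after the start: taaccttgccTATCatgtttcgag
ELF3 promoter, 39 bases after the start: gcagcggccaGATAcctcagc
EHF first promoter, 141 bases before the start: gattttcaggGATAccattttgct
EHF second promoter, 235 bases before the start: gtattcagaaGATAacagaagccc
EHF second promoter, 30 bases before the start: tcagaagcatTATCctctctgcca
The KLF4 promoter and the second KLF5 promoter held 0 matches. GATA was found on at least 1 strand in 49.7% of 35116 RefSeq promoters, so 4 of 6 is a common state of such windows. Longer words that contain GATA and are preferred by GATA factors were searched too. TGATAG occurred in the first KLF5 promoter and in 5.80% of all promoters, and AGATAA in the second EHF promoter and in 10.3% of all promoters. AGATAG (6.63% of all promoters) was in none of the 6. The same held for TGATAA (7.53%). At least 1 of these 4 words occurred in 24.97% of all promoters. CACCC occurred in 59.9% and GGAA in 95.5% of all promoters. A match is a run of letters in a reference window of another build, and no position was carried from that build to the intervals.

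KLF5 held intervals inside and beside the gene. The gene body runs from 73629114 to 73651680 on chromosome 13, 22.6 kb on the plus strand, and 3 of the 12 intervals overlapped it, 2 lay upstream and 7 downstream. The widest member of all 4 loci, from 73632580 to 73633924 (1344 bp), began 3.47 kb and ended 4.81 kb after the gene start. Of all intervals in the list 8.78% were at least as wide, and of those on chromosome 13 3.85%. The distance between the RefSeq starts of KLF5, given above, falls between 3.47 and 4.81 kb, but it was measured in GRCh38.p14 and not placed in hg19. The other intervals in the gene body ran from 73643675 to 73644054 (379 bp) and from 73649632 to 73650108 (476 bp). Another, from 73653459 to 73653954 (495 bp), began 24.3 kb after the gene start, just past the gene's end. These 4 intervals formed the largest cluster among the members, where a cluster links neighbours no more than 12.5 kb apart.

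Upstream of KLF5 the nearest interval ran from 73619443 to 73619873 (430 bp), 9.24 kb before the start, and the next lay 99.9 kb before it (73528627 to 73529179, 552 bp). The 90.3 kb between these upstream intervals, from 73529179 to 73619443, was the longest gap between members of the locus, and the 99.5 kb from the upstream limit to the first member was empty too. Downstream the members reached 194 kb from the start in several steps: 1 interval at 86.1 kb, a pair at 109 and 112 kb, a pair at 155 and 164 kb and 1 at 194 kb. The last of these, from 73822725 to 73823783 (1058 bp), was the second widest of the locus, and the interval from 73784230 to 73785094 (864 bp) the third. Intervals went on past both limits of the locus: the nearest outside began 9.28 kb beyond the downstream limit (73860955 to 73861852, 897 bp) and ended 14.6 kb before the upstream limit (73413920 to 73414519, 599 bp). By order in the RefSeq table, PIBF1 is the coding gene before KLF5 and KLF12, another Krüppel-like factor, the one after it. Which of them an interval lies in was not determined.

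KLF4 had no interval in or near the gene. The average density of chromosome 9 would place 0.591 intervals within 75 kb of the gene body, where the list held 0. Its body runs from 110247133 to 110252047 on chromosome 9, 4.91 kb on the minus strand. The single member ran from 110349639 to 110350427 (788 bp), 97.6 kb upstream of the gene start, and 30.01% of all intervals were at least as wide. The 200 kb downstream of KLF4 held 0 intervals. The nearest intervals outside lay 65.5 kb beyond the limit on the upstream side (110517568 to 110517891, 323 bp) and 94.0 kb beyond it on the downstream side (109952922 to 109953180, 258 bp). By order RAD23B and ACTL7B are the coding genes on either side. Depth is unknown, so emptiness here means the absence of a common interval from the list and not the absence of GATA4.

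ELF3 was the gene whose body had its start in an interval. Its body runs from 201979690 to 201986315 on chromosome 1, 6.63 kb on the plus strand. The interval over the start ran from 201979244 to 201980317 (1073 bp), from 0.446 kb before the start to 0.627 kb after it. Of all intervals 15.6% were at least as wide, and of those on chromosome 1 14.9%. The interval over the start was the single member of the 34 to cover the start of a gene body as defined here. It was also the single interval to overlap the ELF3 body. Other annotated starts, such as the second of KLF5, were not placed in hg19, so whether a member covers them was not determined. The next downstream ran from 201988818 to 201989294 (476 bp), 9.13 kb from the start and past the gene's end.

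Of the other ELF3 members, 8 in all lay downstream and 3 upstream. A run of 3 downstream intervals lay between 24.2 and 48.1 kb from the start, and its middle member, from 202014955 to 202016110 (1155 bp), was the widest of the locus. Those beside it ran from 202003916 to 202004568 (652 bp) and from 202027215 to 202027792 (577 bp). Farther out, intervals lay at 66.3 kb (297 bp), at 103 kb (202082788 to 202083763, 975 bp, the third widest), at 172 kb (372 bp) and at 204 kb (808 bp), with the longest gap between members, 68.2 kb, from 202083763 to 202151957. The 85.1 kb from the upstream limit of the locus to its first member was empty as well. Upstream the nearest ran from 201924311 to 201924719 (408 bp), 55.0 kb before the start, followed by intervals 102 kb (505 bp) and 114 kb (549 bp) before it. The nearest intervals outside the locus were 106 kb beyond the upstream limit (842 bp) and 125 kb beyond the downstream limit (641 bp), so that the 12 intervals stood between longer empty stretches. ELF3 lies among many genes: the RefSeq table puts 10 other coding genes within 200 kb of it in GRCh38.p14, with TIMM17A and RNPEP before it and GPR37L1 after it, against 1 within that reach of KLF5, 1 of KLF4 and 2 of EHF. Which gene an interval of this locus belongs to was not determined.

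EHF held the most listed intervals inside a gene body among the 4 genes, and its body was the longest of the 4. Its body runs from 34642588 to 34684826 on chromosome 11, 42.2 kb on the plus strand, and 4 of its 9 intervals overlapped it, 3 lay upstream and 2 downstream. The 4 in the body formed 2 pairs. The first pair, from 34661152 to 34661552 (400 bp) and from 34661617 to 34662274 (657 bp), was parted by 65 bp, the shortest gap among the members, and lay 18.6 to 19.7 kb after the gene start. With intervals within 1 kb merged, this pair became 1 and the locus held 8. The EHF body then no longer held more intervals than the KLF5 body. The second pair ran from 34675313 to 34676010 (697 bp, the widest of the locus before merging) and from 34677683 to 34678059 (376 bp), 32.7 to 35.5 kb after the start. The start of the EHF body itself was free of intervals. The nearest to it, from 34638388 to 34638927 (539 bp), ended 3.66 kb upstream, and another ran from 34626473 to 34626990 (517 bp), 15.6 kb upstream. Before these lay the longest gap between members, 134 kb from 34492797 to 34626473, and then an interval 150 kb before the start (34492299 to 34492797, 498 bp). The downstream members lay 98.2 kb (34740781 to 34741386, 605 bp, the third widest) and 163 kb (34805526 to 34806042, 516 bp) after the start. Outside the locus the nearest intervals were 169 kb beyond the upstream limit (418 bp) and 52.8 kb beyond the downstream limit (951 bp). ELF5, another epithelial ETS gene, and CAT, the gene of catalase, precede EHF in the RefSeq table, and APIP follows it. No interval was assigned to them.

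**Figure D1:**
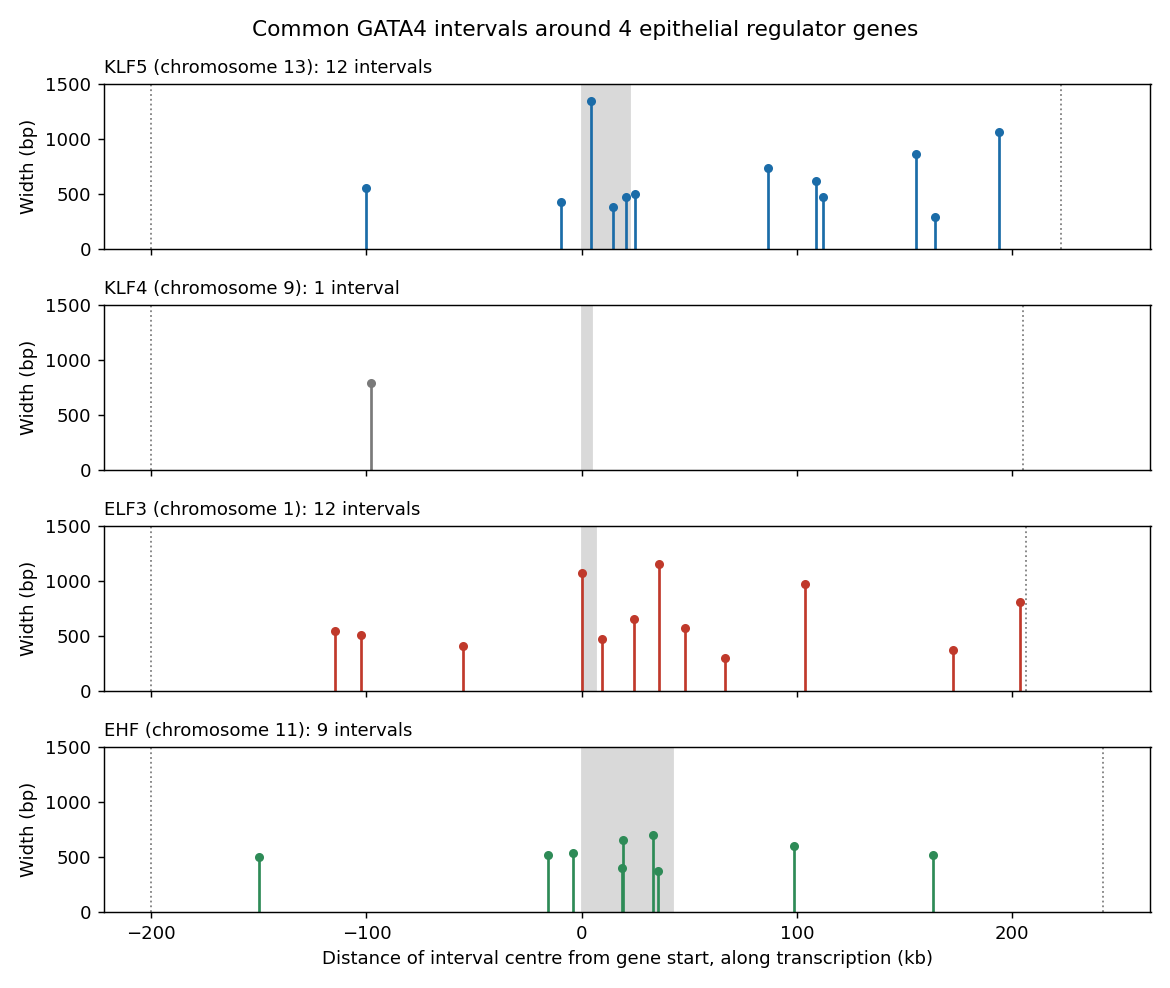
Each line and point is 1 interval common to the 4 libraries, placed by the distance of its centre from the gene start along the direction of transcription (x axis, kb) and as high as it is wide (y axis, bp). Grey bands are gene bodies and dotted lines the limits of the loci; KLF5, ELF3 and EHF have intervals in the gene body, while the single KLF4 interval lies 97.6 kb upstream.

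At KLF5, EHF and ELF3 the intervals were denser per unit length in the gene body than in the flanks. KLF5 had 3 intervals in its body, or 133 per Mb, against 9 in its 400 kb of flanks, or 22.5 per Mb. EHF had 4 in its body before merging (94.7 per Mb) against 5 in its flanks (12.5 per Mb). ELF3 had 1 in its short body (151 per Mb, from a single interval that began before the body) against 11 in its flanks (27.5 per Mb). KLF4 had 0 in its body and 1 in its flanks (2.5 per Mb). Whether other genes are denser in the body than in the flanks was not examined. When each chromosome was cut into windows of the length of the gene body, 1.29% of 4254 windows of chromosome 13 held as many intervals as the KLF5 body or more, 1.76% of 3189 windows of chromosome 11 as many as the EHF body, and 3.00% of 37617 windows of chromosome 1 as many as the ELF3 body. For KLF4 the share is 100%, since its body held 0. Of the 28713 windows of that length on chromosome 9, 98.3% were empty too, so an empty body of this length is the common state. These shares describe where the genes stand among windows of their chromosome. They are not tests, because neighbouring windows resemble each other and windows differ in gene content, which was not matched.

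Whole loci were then set beside windows of equal length laid end to end from the locus, between the first and the last interval of the chromosome. The KLF5 locus, with 12 intervals, stood against a median of 3 per window (quartiles 1 and 7, highest 22), and 10.2% of 225 windows of chromosome 13 held 12 or more, while 76.4% held at least 1. The EHF locus, with 9, stood against a median of 2 (quartiles 0 and 6, highest 52), and 15.2% of 303 windows of chromosome 11 held 9 or more, while 73.3% held at least 1. The ELF3 locus, with 12, stood against a median of 1 (quartiles 0 and 2, highest 95), and 2.78% of 611 windows of chromosome 1 held 12 or more, while 55.2% held at least 1. For KLF4, 42.5% of 346 windows of chromosome 9 held at least 1 interval, and the median window held 0. As rates, ELF3 held 29.5 intervals per Mb against 5.57 for its chromosome (5.30 times), KLF5 28.4 against 10.5 (2.69 times), EHF 20.4 against 10.1 (2.02 times) and KLF4 2.47 against 3.81 (0.648 times). KLF5 and ELF3 thus had equal counts, but the ELF3 count stood farther above its chromosome. These rates and shares take in dense and empty stretches alike, and neither kind was left out. On chromosome 9 the fullest window, from 68340991 to 68745905, held 58 of 538 intervals, and windows from 45665807 to 66316421 each held 0. On chromosome 1 the fullest, from 144852190 to 145258815, held 95 of 1389, and windows from 121674565 to 142412440 each held 0.

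Interval density differed between parts of these chromosomes, so the loci were also compared with windows within 10 Mb. Around ELF3, 0 of 50 windows held 12 or more, and the fullest held 8. Around EHF, 0 of 46 windows held 9 or more, and the fullest held 7. Around KLF5, 1 of 48 windows held 12 or more (2.08%). That window adjoins the locus on its downstream side, from 73851680 to 74274246, and held 13, so the intervals of KLF5 were part of a longer run. Around KLF4, 29 of 50 windows (58.0%) held 1 or more, and the fullest held 12. The median window in each of the 4 neighbourhoods held 1 interval. The nearest windows that reached the locus's count were 12.4 Mb away from EHF and 32.5 Mb from ELF3. The 46 windows of chromosome 11 that reached the EHF count thus all lay more than 10 Mb from it, as did the 17 windows of chromosome 1 that reached the ELF3 count.

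**Figure D2:**
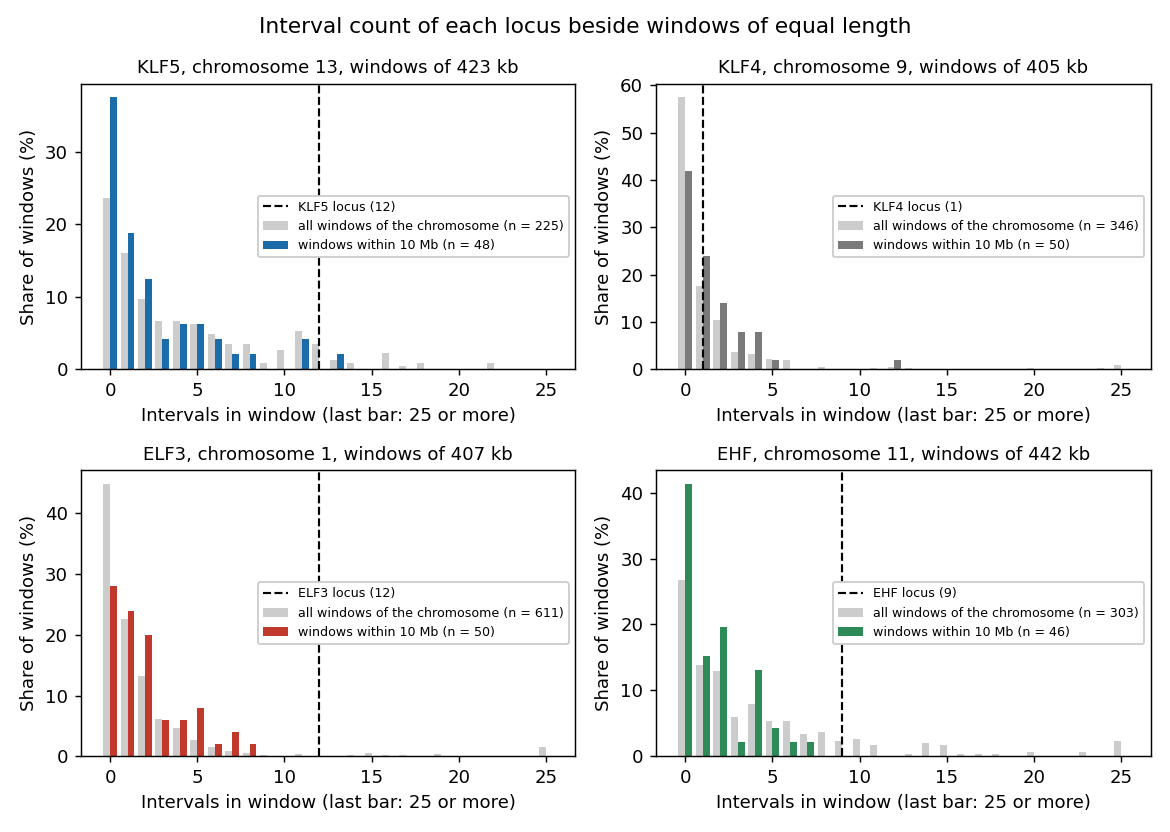
For each locus, bars give the share of windows of equal length (y axis, %) that hold a given number of intervals (x axis; the last bar collects 25 or more), in light grey for the whole chromosome and in the darker colour for windows within 10 Mb. The dashed line is the locus itself: 12 for KLF5 and ELF3, 9 for EHF and 1 for KLF4; within 10 Mb of ELF3 and EHF no tiled window reaches the line.

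The length covered gave shares of windows close to those of the count at KLF5, ELF3 and EHF, but a lower share at KLF4. Intervals covered 7.71 kb of the KLF5 locus (1.82%, against 0.684% of chromosome 13), and 10.7% of windows had as much covered. They covered 7.85 kb of the ELF3 locus (1.93%, against 0.387% of chromosome 1; 2.95% of windows) and 4.81 kb of the EHF locus (1.09%, against 0.671% of chromosome 11; 18.8% of windows). At KLF4 the single interval covered 0.788 kb (0.195%, against 0.238% of chromosome 9), and 22.5% of windows had as much, against 42.5% by count. Within 10 Mb, 0 of 50 windows around ELF3, 0 of 46 around EHF, 1 of 48 around KLF5 and 15 of 50 around KLF4 had as much covered.

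How the intervals accumulated with distance also set the loci apart. Within 25 kb of the gene body there were 5 intervals at KLF5, 6 at EHF, 3 at ELF3 and 0 at KLF4, where the chromosome averages would place 0.765, 0.931, 0.316 and 0.209. Within 100 kb there were 9 at KLF5, 7 at EHF, 8 at ELF3 and 1 at KLF4, against chromosome averages of 2.35, 2.44, 1.15 and 0.781. Between 200 and 300 kb from the gene body ELF3 gained 0 intervals, its count staying at 12 (average 3.38 within 300 kb). Within 300 kb KLF5 reached 18 (average 6.57), EHF 10 (6.48) and KLF4 3 (2.31). Within 500 kb the counts were 28 at KLF5 (chromosome average 10.8), 18 at ELF3 (5.61), 17 at EHF (10.5) and 4 at KLF4 (3.83).

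**Figure D3:**
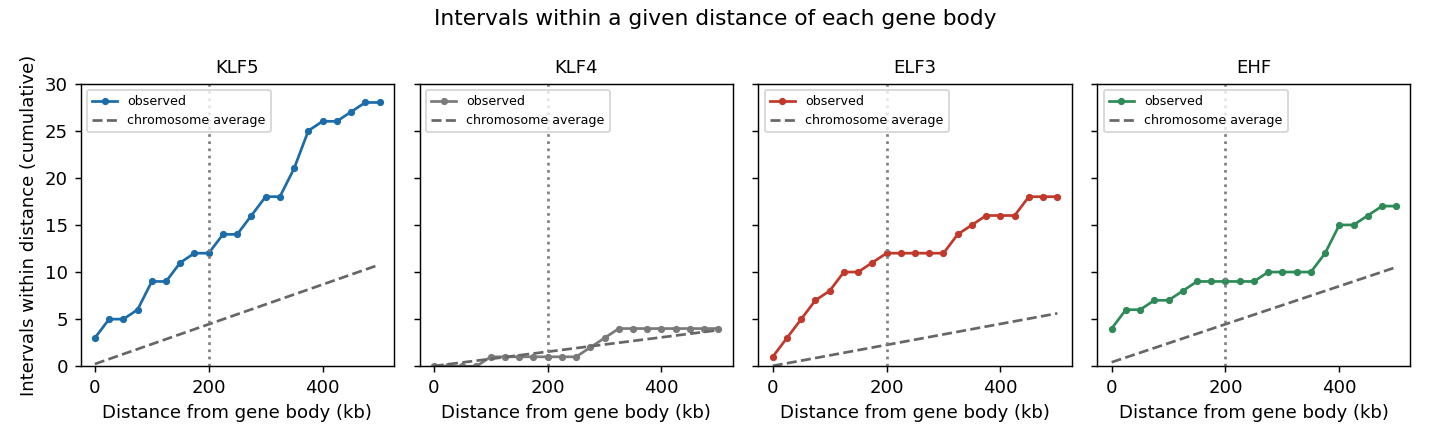
Solid lines with points give the number of intervals within a distance of the gene body (x axis, kb), counted cumulatively on both sides, and dashed lines the number that the chromosome's average density gives for the same length. The dotted line marks 200 kb; KLF5, ELF3 and EHF run above the average from the gene body outward, while KLF4 has 1 interval within 200 kb.

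With the flank of 200 kb, the intervals at KLF5, ELF3 and EHF had median widths below those of their chromosomes, at ELF3 only slightly. The single KLF4 interval was wider than its chromosome's median. The median over the 34 members was 544 bp, from 288 to 1344 bp, against 586 bp for the list, and 14 members were at or above the list's median. Widths of 1 kb or more occurred in 4 members (11.8%), against 18.2% of the list: 2 at KLF5 and 2 at ELF3. The list does not stand for each chromosome. The KLF5 width of 1058 bp was reached by 16.0% of the list but 9.58% of chromosome 13. The ELF3 width of 1073 bp was reached by 15.6% of the list and 14.9% of chromosome 1. By locus the median was 523.5 bp at KLF5 (288 to 1344 bp; chromosome median 579 bp), 563 bp at ELF3 (297 to 1155 bp; 568 bp) and 517 bp at EHF (376 to 697 bp; 582 bp). Among windows with at least 1 interval, 54.7% on chromosome 13, 32.6% on chromosome 1 and 55.9% on chromosome 11 had a median width as large as that of the KLF5, ELF3 and EHF locus. The KLF4 interval, at 788 bp, was 1.55 times the median of chromosome 9 (508 bp), and 11.6% of 147 windows there had a median width as large. The side of the chromosome's median depended on the flank. With 100 and 500 kb the median was 614.5 and 646.5 bp at ELF3, both above its chromosome's. It was 495 and 596.5 bp at KLF5, the latter above its chromosome's. At EHF it was 539 bp with either flank, and at KLF4 788 and 292 bp. EHF had the most listed intervals in its body and none of 1 kb or more, but both statements hold only before merging. With intervals within 1 kb merged, the EHF body no longer held the most. The merged interval, from 34661152 to 34662274, was then wider than 1 kb. No member lay in a cluster of 20 or more intervals, and 13 of the 34 had no neighbour within 12.5 kb: 4 at KLF5, 1 at KLF4, 5 at ELF3 and 3 at EHF.

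**Figure D4:**
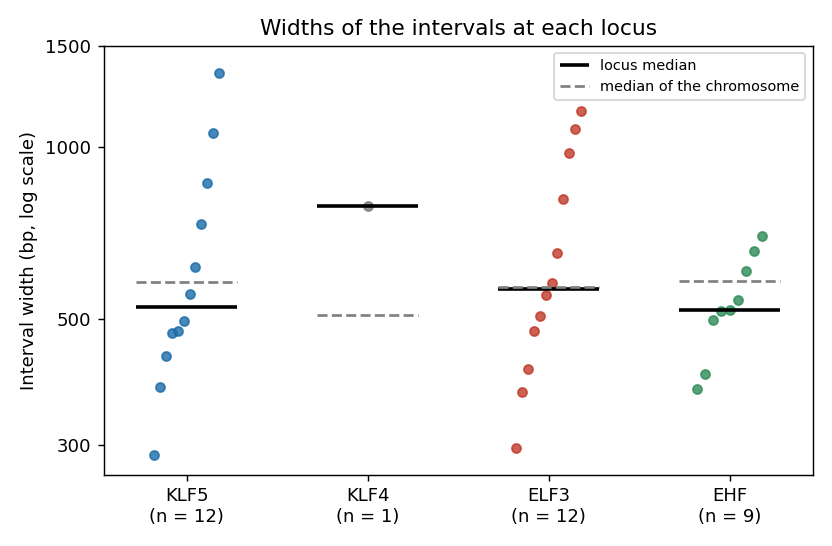
Each point is the width of 1 interval (y axis, bp, log scale), sorted within its locus; black bars are locus medians and dashed grey bars the medians of the chromosomes. Before merging, widths reach 1344 bp at KLF5 and 1155 bp at ELF3 but 697 bp at EHF, and the KLF4 locus has 1 interval of 788 bp.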

How the data were processed

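Per the labels, 4 CUT&RUN libraries of GATA4 in PaTu8988S were pooled by the authors into 1 deposited list of common peaks. Per the submitters' processing notes, SEACR (a CUT&RUN peak caller) and HOMER were used with build hg19; versions, settings and the overlap that made a peak common were not stated there. The deposited list holds 21308 intervals and no score; 21139 of them, on the 22 autosomes and the X chromosome, were analysed. Coordinates follow the file, widths are end minus start, and an interval on 2 windows counts in both.

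Gene bodies were taken as hg19 coordinates chosen with the gene set, members and lists were chosen with earlier results of these data known, and described are the intervals over or next to each gene or its start, the widest 3 and the longest gap between members. Windows between the first and last interval of a chromosome were counted, without the locus, with scipy 1.17.1, pandas 2.3.3 and numpy 2.4.6 under Python 3.11.15, after a check on simulated intervals; figures used matplotlib 3.10.9. No test was made, as 1 pooled list has no replicates. Strand, gene order and promoter sequences are from RefSeq (GRCh38.p14), matched by symbol. Words were searched on both strands. Alternatives varied the flank, merging, width, window set and window step.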

Additional observations from a re-analysis of the deposited data

How the results depend on the processing

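The share of windows with at least the locus's count moved outside its 95% Clopper-Pearson interval as follows. Neighbouring windows resemble each other, so this interval only sorts the values and does not measure the uncertainty of a share. With a flank of 100 kb it was 3.73% for KLF5, 29.5% for KLF4 and 9.91% for EHF, and with 500 kb 29.5% for KLF4 and 6.50% for ELF3. Counting intervals at or above the median width gave 17.8% for KLF5, 21.7% for KLF4 and 25.7% for EHF, with counts of 5 at KLF5, 5 at ELF3 and 3 at EHF. Keeping windows with an interval gave 5.04% for ELF3 and 20.7% for EHF. For KLF4 it gave 100%, which was fixed in advance because that locus holds 1 interval. Windows within 10 Mb gave 2.08% for KLF5, 58.0% for KLF4, 0% for ELF3 and 0% for EHF. For covered length the share was 6.76% (KLF5), 14.4% (KLF4) and 12.3% (EHF) with 100 kb, 31.7% (KLF4) and 6.50% (ELF3) with 500 kb, and 2.08% (KLF5), 30.0% (KLF4), 0% (ELF3) and 0% (EHF) within 10 Mb. With 500 kb the median width at KLF4 was 292 bp over 4 intervals. Among intervals at or above the median width, the nearest to the EHF start lay 19.0 kb away. The cause was not tested; filtering on width and changing the flank leave other intervals to count. The limits differed by kind of value. Counts were called moved when they changed by more than 1.5-fold, and median widths were judged by the standard deviation of the locus's widths. That deviation was set to 0 for the single KLF4 interval. Of 68 recomputed values the other 39 stayed within their limits. Among them, the median widths at ELF3 with either flank and at KLF5 with 500 kb rose above their chromosomes' medians. The last 2 kinds, median width by flank and nearest wide interval, were chosen after seeing the data. Leaving out each library and a stricter score were not run, since the list pools the libraries and holds no score. No paired analysis was possible because there is 1 group and no test. Depth is unknown, so an empty stretch may hold binding that was not listed.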
